A study of Homo sapiens with 6 samples.

Results

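The RNAs described here are the spliceosomal small nuclear RNAs (snRNAs), the short non-coding RNAs at the core of the particles that remove introns, in HCT116 cells with and without the inhibitor NU7441. The genes were selected on measured detection p-values. Of 13 snRNA genes with a probe on the array, 8 had a probe that passed a detection p of 0.05 on every array of 1 group or both, and these 8 are described, out of 9342 genes with such a probe. They are 4 U1 genes (RNU1-1, RNU1-3, RNVU1-18 and RNVU1-7) and RNU4-2, RNU6-1, RNU11 and RNU4ATAC, with 9 probes in all. HCT116 is a human colorectal carcinoma cell line. The cells, grown in DMEM with fetal bovine serum, received for 48 h either NU7441 at 40 µM, which blocks the DNA repair kinase DNA-PK, or the vehicle, dimethyl sulfoxide at 0.1% (v/v). Whether the NU7441 samples also received the vehicle is not stated in the labels. Each group had 3 samples, with 1 Illumina bead array per sample. The labels do not say whether these were separate cultures, so p-values measure the spread between the samples, which may be technical.

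U1 base-pairs with the start of an intron and U6, delivered in a particle with U4 and U5, replaces it there and forms the catalytic centre with U2. U11 and U4atac serve the minor spliceosome, which removes a rare class of introns, in the places of U1 and U4. U1, U4, U11 and U4atac are made by RNA polymerase II, cut at their 3′ end by the Integrator complex, exported, bound by a ring of Sm proteins with the help of the SMN complex, given a trimethylated cap and returned to the nucleus. U6 is made by RNA polymerase III, stays in the nucleus and carries a ring of LSM proteins. U1 has many near-identical gene copies, of which those named RNVU1 are variant U1 genes.

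The arrays limit what the values stand for. The labelling kit named in the labels primes from poly(A) tails, which mature snRNAs lack, and the arrays do not separate mature from extended or polyadenylated forms. A U1 probe may also bind RNA of other U1 copies, so each probe is given under the name in the platform annotation, and the copies count as uncertain. In bulk RNA, fewer cells of a type and less RNA per cell cannot be told apart. Between 16593 and 17788 of 47323 probes were detected per array, and the array medians lay between 72.8 and 75.3. Of 8 markers of an intestinal epithelial line, 6 were detected on all arrays. VIL1 and CDX1 were detected on none. Of 7 markers of blood, stromal or endothelial cells, 5 were detected on no array, LUM was detected on 1 array and COL1A1 on 5, with signals of at most 86. Signals are given as deposited, in intensity units, and differences as the log2 fold change, NU7441 minus vehicle, ± its standard error in the fit (SE), after background correction and quantile normalization.

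All 4 U1 probes rose with NU7441, by 0.99 to 1.41 on the log2 scale. RNVU1-18 read 142.8, 137.3 and 148.5 on the vehicle arrays and 226.1, 237.3 and 261.5 on the NU7441 arrays. Every NU7441 array of RNVU1-18 lay above every vehicle array, and the log2 fold change was 1.27 ± 0.11 (SE, n = 3 per group, limma adjusted p = 1.88e-06). RNU1-3 read 127.6, 114.3 and 124.9 against 201.1, 210.9 and 225.9. This was the copy with the largest rise of the 4, at 1.41 ± 0.11 (adjusted p = 1.02e-06). RNVU1-7 read 115.8, 126.9 and 120.4 against 187.7, 196.6 and 225.1, a rise of 1.33 ± 0.12 (adjusted p = 3.45e-06). RNU1-1 read 129.6, 118.4 and 118.9 against 164.7, 160.7 and 203.4. Its groups did not overlap either, and it had the smallest rise of the copies, 0.99 ± 0.12 (adjusted p = 2.84e-05). After normalization the 3 NU7441 arrays of RNU1-1 lay between 6.82 and 7.09 (log2 intensity). Differences between the copies were not tested.

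RNU4-2, one of a pair of neighbouring U4 genes, rose as well. It read 80, 81.7 and 82.2 on the vehicle arrays and 93.9, 100.1 and 107.2 on the NU7441 arrays. The groups did not overlap, and the log2 fold change was 0.88 ± 0.11 (adjusted p = 4.17e-05). The vehicle signals of RNU4-2 lay close to background, with detection p-values up to 0.0169, so the size of its rise rests on the background correction. RNU6-1, a U6 gene, read 368, 363.7 and 382.6 against 458.1, 517 and 648.8. Replicate 3 of NU7441 was well above the other 2 in the deposited signal. After normalization the 3 arrays stood at 8.93, 8.99 and 9.10 (log2 intensity), above the vehicle mean of 8.18 ± 0.09 (SD, n = 3). The log2 fold change of RNU6-1 was 0.82 ± 0.11 (adjusted p = 8.61e-05), and 0.77 without NU7441 replicate 3.

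**Figure D1:**
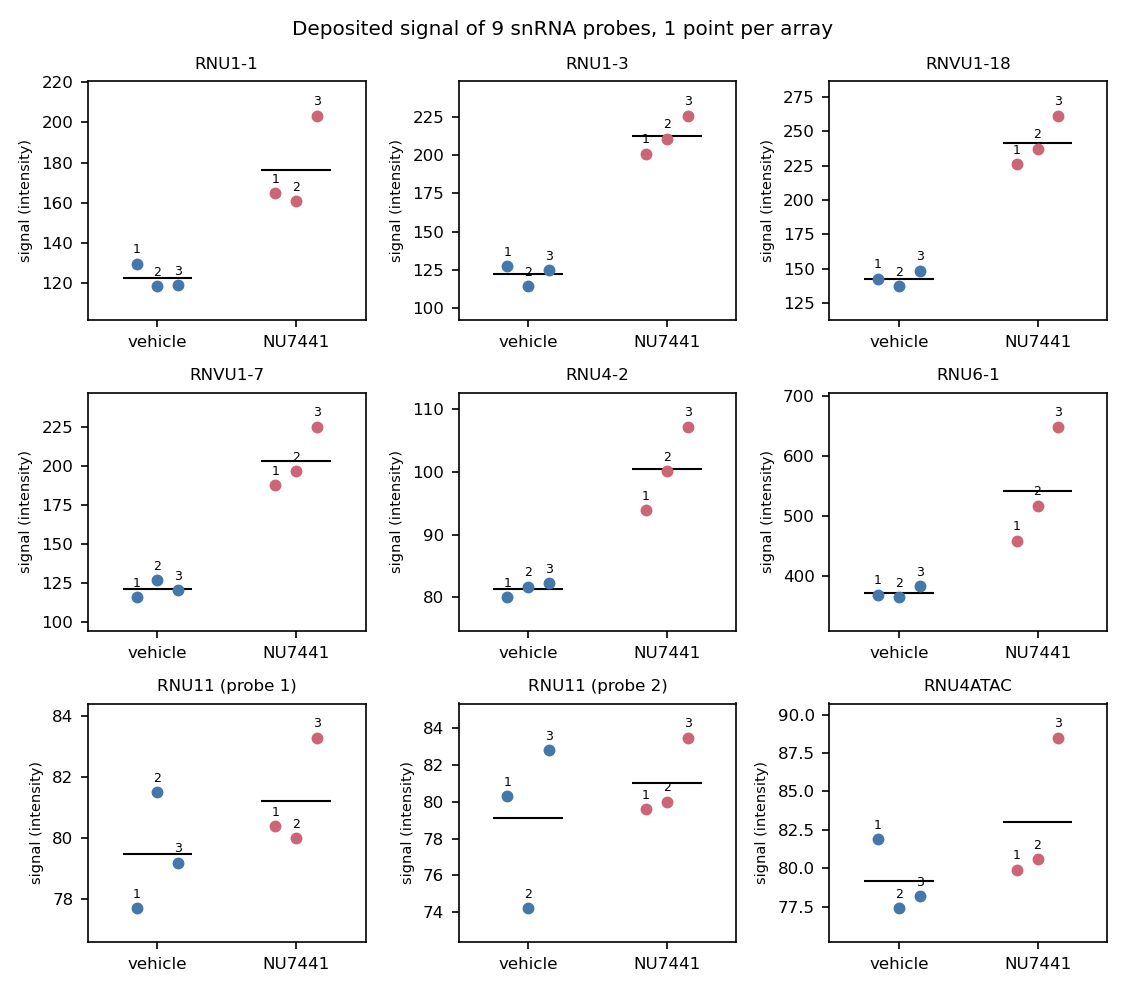
Deposited signal (intensity units, a separate axis per panel that does not start at 0) of the 9 snRNA probes on each array, with replicate numbers beside the points and a line at the group mean (n = 3). In the 6 panels of U1, RNU4-2 and RNU6-1 every NU7441 array is above every vehicle array, and in all 9 panels NU7441 replicate 3 is the highest array.

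The 6 probes detected in both groups were thus all called higher, where 34.2% of the 14973 kept probes were called in either direction and 16.7% were called higher. In all 6 the NU7441 arrays lay above the vehicle arrays, as they did for 23.1% of kept probes. Their median log2 fold change was 1.13, against 0.01 over all kept probes. Ordered by size of rise among the 14973, they ranked between 44 and 289. The members and lists were chosen with earlier results of these data known, so these counts are a description.

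The 3 probes of the minor spliceosome snRNAs were kept through the NU7441 arrays alone and are described without a test. RNU11 had 2 probes. The first, designed to an expressed sequence tag, read 77.7, 81.5 and 79.2 on the vehicle arrays and 80.4, 80 and 83.3 on the NU7441 arrays. The second read 80.3, 74.2 and 82.8 against 79.6, 80 and 83.5. Both sets of arrays overlapped in signal, and the log2 fold changes were 0.16 ± 0.12 and 0.16 ± 0.12 (SE, n = 3 per group). Single arrays decided both values. Without vehicle replicate 2 the first probe was at 0.23 and the second at 0.05, and without vehicle replicate 1 they were at 0.09 and 0.19. RNU4ATAC read 81.9, 77.4 and 78.2 against 79.9, 80.6 and 88.5, with a log2 fold change of 0.26 ± 0.12. Its deposited signals overlapped, while the normalized arrays did not, at 4.75, 4.67 and 4.91 against 4.65, 4.45 and 4.45 (log2 intensity). These probes sit near background, where the offset added in the correction shrinks differences. The threshold fell close to them. RNU11's first probe missed it on vehicle replicate 1 and RNU4ATAC missed it on vehicle replicate 3, both with a detection p of 0.0507, and RNU11's second probe missed it on vehicle replicate 2 with 0.214. Just outside was RNU4-1, the neighbour of RNU4-2, which was detected on 1 vehicle and 2 NU7441 arrays. It read 76.6, 78.6 and 74.7 against 73.1, 80.2 and 82.8, and its groups overlapped. The other 5 probes without sufficient detection belong to RNU2-1, RNU5A-1, RNU5D-1 and RNU6ATAC, and each was detected on at most 1 of 6 arrays. No level of U2, U5 or U6atac can therefore be given.

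**Figure D2:**
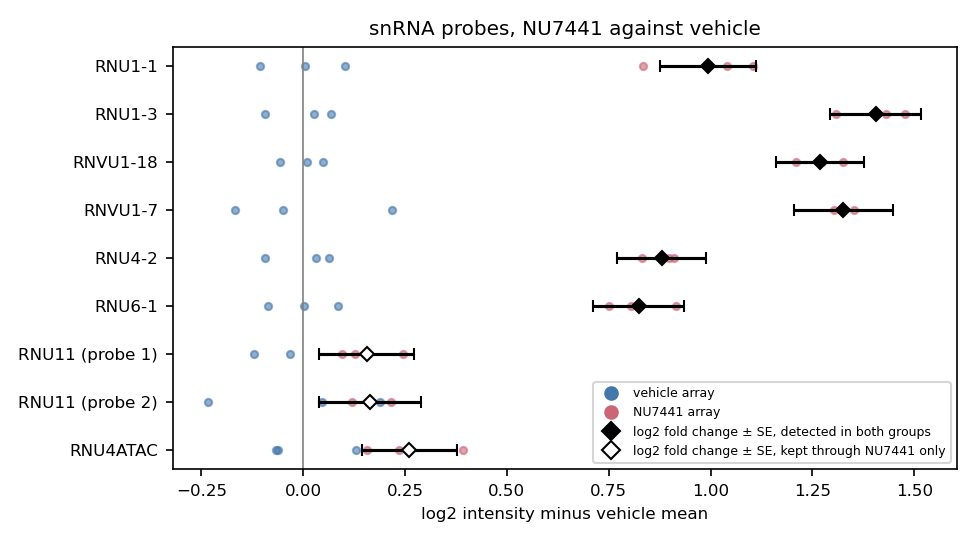
Normalized log2 intensity of each array minus the vehicle mean of the probe (circles) and the log2 fold change ± SE (diamonds, n = 3 per group) for the 9 snRNA probes. Filled diamonds, 0.82 to 1.41, are probes detected in both groups, and open diamonds, 0.16 to 0.26, are probes kept through the NU7441 arrays only.

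The U1 probes were set against the other snRNA probes array by array. Averaged over the 4 U1 probes, the NU7441 arrays stood 1.30, 1.21 and 1.24 above the vehicle mean (log2). The mean of RNU4-2 and RNU6-1 stood 0.79, 0.86 and 0.91 above it, and that of RNU11 and RNU4ATAC 0.23, 0.12 and 0.23. U1 was the higher on each of the 3 arrays in both comparisons, by 0.40 ± 0.10 (SD, n = 3) over RNU4-2 and RNU6-1. Over all 5 other probes the difference was 0.79 ± 0.05 (SD, n = 3), but 3 of these 5 are the RNU11 and RNU4ATAC probes, which lie near background. No p-value is given for these means, since the members were chosen with results known. The gap between U1 and RNU6-1 depends on the background correction. It was 0.43 with an offset of 16, 0.18 with an offset of 50, 0.09 without correction and 0.09 in the authors' log2 table. The gap between U1 and RNU4-2, which is near background on the vehicle arrays, moved the other way. It was 0.37, 0.50, 0.48 and 0.50 in the same order, and 0.27 with 75th percentile scaling. The order of RNU1-1 and RNU6-1 turned with the offset of 50, at 0.72 and 0.76, and without correction, at 0.61 and 0.72. It also turned in the authors' log2 table, at 0.62 and 0.74, and narrowly with neither correction nor normalization, at 0.52 and 0.53.

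Fold sizes as a whole depend on that step. Without background correction the 4 U1 probes stood between 0.61 and 0.91, RNU4-2 at 0.33 and RNU6-1 at 0.72, all still past the threshold. On the log2 of the deposited signals, with no normalization either, the lowest and highest U1 probes were at 0.52 and 0.80, RNU4-2 at 0.30 and RNU6-1 at 0.53. Scaling by the 75th percentile of all probes gave 0.90 for RNU1-1 and 1.30 for RNU1-3. Taken over the probes detected on all arrays, the same percentile gave 1.05 and 1.45 and moved the median of all kept probes to 0.11, above which all 6 remained. The minor spliceosome probes moved too. With that last scaling the RNU11 probes stood at 0.33 and 0.34 and RNU4ATAC at 0.44. Without background correction they stood at 0.05, 0.06 and 0.08, and on the log2 of the deposited signals at 0.03, 0.04 and 0.07.

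**Figure D3:**
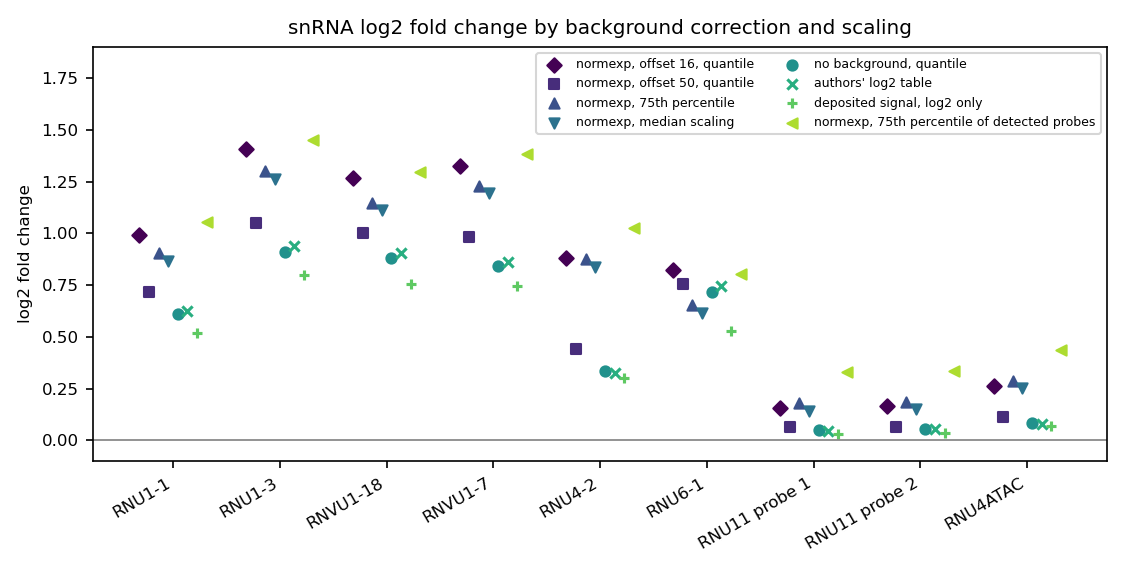
Log2 fold change (NU7441 over vehicle) of the 9 snRNA probes under 8 combinations of background correction and scaling. The values of the 6 probes detected in both groups run from 0.30 to 1.45, and each probe is above 0 in every combination.

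Other small non-coding RNAs on the arrays are given beside them. RN7SK, the RNA that holds the elongation factor P-TEFb inactive, had 2 probes. The brighter read 134.6, 134 and 132.7 against 236, 234.6 and 288.3, with a log2 fold change of 1.50 ± 0.11 (adjusted p = 5.31e-07). The other probe was detected on none of the vehicle arrays, where it read 75.1, 74.1 and 76.4, and on all NU7441 arrays, at 118.5, 117.7 and 152.9. RN7SL1, the RNA of the signal recognition particle, stood at 0.05 ± 0.11 (adjusted p = 0.758), and RPPH1, the RNA of ribonuclease P, at 0.02 ± 0.12 (adjusted p = 0.918). Of 11 kept probes of small Cajal body RNAs, which guide the modification of snRNAs, 7 were called higher and 1 lower, with a median of 0.56, where 16.7% of all kept probes were called higher and 17.5% lower. Of 36 kept probes of H/ACA small nucleolar RNAs 4 were higher and 5 lower, and of 47 kept probes of C/D small nucleolar RNAs 4 were higher and 9 lower.

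The named probes whose 6 arrays lay nearest to the mean U1 profile were those of H4C14, VGF, TNFRSF6B, MSMO1 and CNFN. Their log2 fold changes ran from 1.13 to 1.26, near the U1 mean of 1.25. That profile was nearly flat within each group, so nearness mostly reflects a fold change of like size. Shared control with U1 was not tested. The measure was the root mean square difference of log2 values centred on the vehicle mean, which was 0.04 for H4C14, a histone gene, and 0.09 for CNFN. The 4 U1 probes make up that mean, and their own differences from it ran from 0.05 for RNVU1-18 to 0.20 for RNU1-1. RNU4-2 stood at 0.27 and RNU6-1 at 0.31, not far from RNU1-1.

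Some of the genes overlap others in RefSeq's GRCh38.p14 annotation, namely RNU4-2 with SIRT4, RNU11 with TAF12-DT, and RNU4ATAC with CLASP1 and CLASP1-AS1. The probes of the overlapping genes did not pass the threshold where there was one. SIRT4, a mitochondrial sirtuin, stood at 0.26 ± 0.16 (adjusted p = 0.227), with arrays that overlapped. CLASP1, a microtubule-binding protein, stood at 0.15 ± 0.12 (adjusted p = 0.314). Whether RNA of an overlapping gene adds to an snRNA probe's signal was not tested.

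Genes that make and assemble snRNA particles mostly fell or did not pass the threshold. Of 110 genes measured in 10 lists, 37 were called lower and 3 higher, where 18.9% of all genes were called lower and 17.8% higher. A gene with several kept probes counted by the brightest. The median over the 110 was -0.21, against 0.00 over all genes.

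At the level of snRNA synthesis, of 11 promoter factors measured 1 was lower and 0 were higher. This was ICE2, a subunit of the little elongation complex that acts at snRNA genes, at -0.66 ± 0.13 (adjusted p = 0.00171), whose dimmer probe stood at -0.11. On the NU7441 arrays the called ICE2 probe averaged 4.44 ± 0.15 (SD, n = 3, log2 intensity), close to background. RNU11 and RNU4ATAC missed the detection threshold near that level, at 4.42 and 4.45, so the ICE2 value is limited in the same way. The count of lower promoter factors was 0 without vehicle replicate 1 or 2 and with detection p below 0.01 asked on all 6 arrays. It was 2 without any 1 of the NU7441 arrays. It was also 2 with 75th percentile scaling, median scaling, array weights, 1 probe per gene, or eBayes with an intensity trend and robust option. Of 13 Integrator subunits 2 were lower and 1 was higher. INTS13 stood at -0.75 ± 0.15 with a dimmer probe, kept through the vehicle arrays alone, at -0.12, INTS9, part of the cleavage module, at -0.53 ± 0.11, and INTS2 at 0.40 ± 0.11. INTS2 was not called without vehicle replicate 2. None of the 3 list genes called higher, INTS2 among them, was called with 75th percentile scaling, median scaling, the log2 of the deposited signals or an adjusted p threshold of 0.01.

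Assembly and transport came next. Of 7 Sm proteins 4 were lower and 0 higher, led by SNRPD1 at -0.79 ± 0.12 (adjusted p = 0.000187), SNRPB at -0.73 ± 0.12 and SNRPF at -0.65 ± 0.11. Of 11 genes of the SMN complex and its partners 6 were lower and 0 higher. GEMIN4 stood at -1.07 ± 0.14 (adjusted p = 5.39e-05), WDR77, a partner of the Sm methyltransferase PRMT5, at -0.86 ± 0.11, and GEMIN5, which recognises snRNAs, at -0.84 ± 0.15. Of 9 genes of export, cap hypermethylation and return to the nucleus 4 were lower and 0 higher. RAN, the GTPase of nuclear transport, was at -0.60 ± 0.12 (adjusted p = 0.00129), TGS1, which trimethylates the cap, at -0.53 ± 0.11 and NCBP1, of the cap-binding complex, at -0.52 ± 0.11.

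Counts of the other protein partners are given by particle, where 18.9% of all genes were called lower and 17.8% higher. The lists are small, and differences between particles were not tested. By the brightest probe, none of 6 measured proteins specific to U1 or associated with it was called, with a median of -0.04. This list leaves out the Sm proteins, which also bind U1 and of which 4 of 7 were lower. A dimmer probe of LUC7L3, a U1-associated splicing factor, was called higher, at 0.82 ± 0.17 (adjusted p = 0.00183), while its brightest stood at 0.27 ± 0.20, so its probes disagree. By the brightest probe 1 of the 6 was called higher without NU7441 replicate 1 and 1 lower with 75th percentile scaling, median scaling, array weights or the log2 of the deposited signals. Of 13 genes of U6 maturation and the LSM ring 6 were lower and 1 higher. The lower ones were led by LSM3 at -0.64 ± 0.11 (adjusted p = 0.00042), with a dimmer probe at -0.22, LSM4 at -0.41 ± 0.12 and SSB, the La protein that binds the U6 end, at -0.39 ± 0.11. MEPCE, chosen after its values were seen, was the higher one, at 0.36 ± 0.12. The count of 6 lower was 2, 3 and 1 without vehicle replicate 1, 2 and 3, and 2 without NU7441 replicate 1. At an adjusted p of 0.01 it was 1. MEPCE was not called without vehicle replicate 2 or 3 or NU7441 replicate 2, nor without the detection filter.

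Of 15 proteins of the U4/U6 and U5 particles 6 were lower and 0 higher, led by SNRNP40 at -0.80 ± 0.13 (adjusted p = 0.000284), PPIH at -0.68 ± 0.11 and SNU13, which binds U4, at -0.53 ± 0.12. The other 2 probes of SNU13 stood at -0.96 and 0.19. Without background correction, with offset 50 and in the authors' log2 table, 2 genes of these particles were called higher, and 1 with array weights. Of 8 minor spliceosome proteins 1 was higher and 0 lower. It was ZMAT5 at 0.41 ± 0.12 (adjusted p = 0.0164), with a dimmer probe at 0.05, and it was not called without vehicle replicate 1 or 2 or NU7441 replicate 2. Of 17 genes of the nuclear exosome and snRNA end trimming, which degrade or shorten nuclear RNA, 8 were lower and 0 higher. EXOSC9 stood at -0.99 ± 0.13 (adjusted p = 8.92e-05), EXOSC2 at -0.94 ± 0.11 and EXOSC7 at -0.72 ± 0.11. One exosome gene was called higher without vehicle replicate 3 or NU7441 replicate 1 and with the replicate block. The same count was reached with scaling by the 75th percentile of the probes detected on all arrays.

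**Figure D4:**
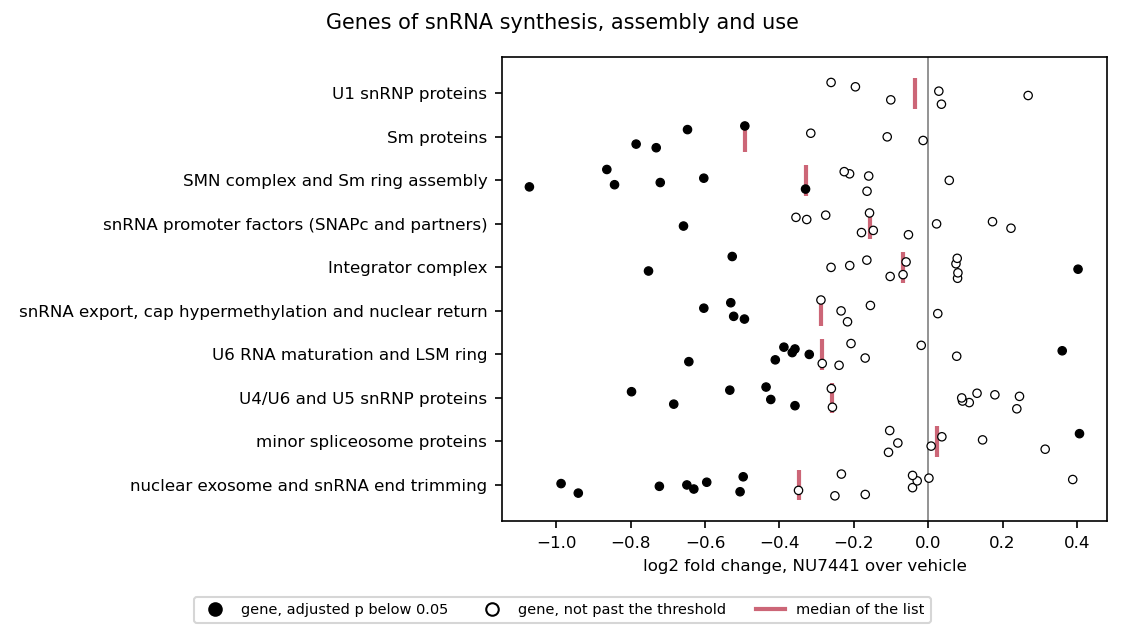
Log2 fold change (NU7441 over vehicle) of the 110 measured genes in 10 lists, 1 circle per gene, filled where the limma adjusted p was below 0.05, with a bar at each list's median. The lists of Sm proteins, the SMN complex and the exosome hold the lowest medians, -0.49, -0.33 and -0.35, and 3 filled circles lie above 0.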

How the data were processed

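Total RNA was labelled as biotinylated cRNA and hybridised, per the labels' protocols. The authors deposited linear probe intensity values, not normalized between arrays, and beside each a detection p-value, per the file headers. They also deposited log2 values for these arrays. GenomeStudio, R 3.0.2 and lumi are named in the submitters' processing notes, without settings in the labels. Set against quantile-normalized log2 signals, the authors' log2 table differed by at most 0.068, so it was taken as uncentred, and it served as an alternative.

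Intensities were corrected with limma 3.58.1 in R 4.3.3 (normexp, offset 16, negative controls taken from the detection p-values), then quantile normalized and logged to base 2. This offset shrinks differences of dim probes. Probes with detection p below 0.05 on all 3 arrays of a group were kept, 14973 of 47323. Names came from GEO's platform annotation, which gave 1 symbol to 30112 probes. All kept probes were fitted together with lmFit and eBayes, group as the only term, with Benjamini-Hochberg adjustment over all 14973 probes and a threshold of 0.05. Probes kept through 1 group alone were not tested among the snRNAs. Among the list genes they were tested and counted like other kept probes. Such a probe was kept for its signal in 1 group, so its test is not independent of the filter. How many of the list genes called lower were kept this way is not given here. Members and gene lists were chosen with earlier results of these data known. The text names every member, up to 3 called genes per list with the largest change, the 5 probes nearest the U1 profile and RN7SK, RN7SL1, RMRP, RPPH1 and RNU7-1. RMRP was not kept, and RNU7-1 has no probe under that symbol. POU2F1 and INTS14 of the lists have no probe under those symbols in the annotation used. The fit alone was also run on simulated log2 values with known changes and independent noise. That run did not cover the background correction or the scaling. The deviations of arrays with the same replicate number gave no sign of pairing, with correlations of -0.11, 0.05 and -0.07. Those of arrays with different numbers ran from -0.08 to 0.15. With so few arrays these values cannot show that the samples were unpaired. Python 3.11.15 with matplotlib 3.10.9 drew the figures.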

Additional observations from a re-analysis of the deposited data

How the results depend on the processing

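Results were recomputed under up to 20 alternatives, fewer for probes that a filter or a choice of 1 probe per gene left out. Of these, 2, the log2 of the deposited signals and scaling by the 75th percentile of the probes detected on all arrays, were chosen after seeing the data. For the list counts, so were all but no background correction, 75th percentile scaling, the replicate block and the left-out arrays. The 6 called snRNA probes kept their direction and stayed past the threshold wherever they were measured, with a largest adjusted p of 0.0152, for RNU4-2. RNU4-2 was not measured with detection below 0.01 asked on all 6 arrays, which left 5 called. With the replicate block 6 were called, and 4866 of all kept probes in place of 5126. All kept probes called numbered 3024 at an adjusted p of 0.01 and 3155 on the log2 of the deposited signals. The share of called probes that were higher, 48.9%, was 36.5% with 75th percentile scaling, 27.1% with median scaling, 65.9% with the percentile of detected probes and 19.7% on the deposited signals. The U1 mean minus the mean of the other snRNA probes, 0.79, was 0.56 without background correction, 0.65 with offset 50, 0.71 with either percentile or median scaling, 0.58 in the authors' log2 table, 0.43 with the stricter detection, where only RNU6-1 was left to compare, 0.72 with 1 probe per gene and 0.51 on the deposited signals. It was 0.76 to 0.83 when 1 array was left out. The list members called higher numbered 3. They numbered 5 without background correction, with offset 50 and in the authors' table, 6 with the percentile of detected probes, 0 with 75th percentile or median scaling, on the deposited signals and at an adjusted p of 0.01, and 0 to 5 when 1 array was left out. The list members called lower, 37, numbered 28 to 45, with 28 at an adjusted p of 0.01, where the U4/U6 and U5 list had 3 in place of 6. Unless the change follows from fewer probes, the cause was not tested. A slide block could not be run, since no slide is named in the files used here. Signals near background limit RNU4-2, RNU11 and RNU4ATAC.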
